A study of Homo sapiens with 6 samples.

Results

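The contacts described here are those that the FGF18 viewpoint made in K562 cells carrying an empty vector, the control state of a 4C-seq series. K562 is a human chronic myeloid leukaemia cell line. The 2 libraries whose titles name EV, the empty vector, were taken from the 6 libraries of the series. Their treatment label is untreated, although the treatment text of the series names EV cells beside the knockout cells as having gone through CRISPR excision, and the content of the vector is not stated. The cells carry none of the silencer deletions of the other groups by their labels. The series' design text calls the 4C replicates biological. No label says whether they came from separate cultures or clones, so the spread given here is that between 2 libraries, whatever its source. Members are the HindIII fragments of chromosome 5 with at least 1 read: 8824 were listed in either library and 976 in both.

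FGF18 encodes a secreted fibroblast growth factor that signals through FGF receptors and is known for its part in skeletal and lung development. The 4C-seq method cuts and religates crosslinked chromatin and then amplifies and sequences the pieces joined to a chosen viewpoint. The reads of a fragment thus reflect how often it was captured with the viewpoint, but after amplification they are not a count of captures. Contact usually falls with distance along the chromosome, and it can fall unevenly where loops or domain boundaries lie nearby. Below, "above" means the telomeric side of the viewpoint and "below" the centromeric side. FGF18 is read from the plus strand, so its transcript runs toward the side called above.

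The viewpoint fragment was chr5:170851908-170853009 on hg19, next to an interval without listed fragments, chr5:170840932-170851907, which is probably the bait. The 250 bases before the annotated start of FGF18 are shown because the viewpoint is named for this gene; they are RefSeq sequence of GRCh38.p14, plus strand, 5′ to 3′, with CG pairs in capitals.
FGF18 promoter: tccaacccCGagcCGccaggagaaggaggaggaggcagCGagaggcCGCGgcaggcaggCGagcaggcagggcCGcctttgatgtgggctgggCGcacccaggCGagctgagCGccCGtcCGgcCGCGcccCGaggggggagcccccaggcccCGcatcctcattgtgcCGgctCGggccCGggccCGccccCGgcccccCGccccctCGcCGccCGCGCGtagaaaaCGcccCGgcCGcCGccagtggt
It held 31 CG pairs and 78.8% G and C, against a median of 11 CG pairs in the same 250 bases of 35116 RefSeq promoters, of which 10.9% held at least 31. Neither the HindIII motif AAGCTT nor the DpnII motif GATC, both of which read the same on either strand and cannot overlap each other, occurred in it. They occurred in 5.02% and 35.8% of the promoters.

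In the order of protein-coding genes of that annotation, the first neighbours below FGF18 were NPM1, a nucleolar chaperone gene often mutated in acute myeloid leukaemia, then TLX3, a homeobox transcription factor gene activated in some T-cell leukaemias, then RANBP17, of the nuclear transport receptor family. GABRP, a GABA-A receptor subunit gene, KCNMB1 and KCNIP1, which encode potassium channel partners, and LCP2, an adaptor of T-cell receptor signalling, followed. Above FGF18 came SMIM23, FBXW11, an F-box protein gene of a ubiquitin ligase, STK10, a serine/threonine kinase gene, EFCAB9, UBTD2, SH3PXD2B, a podosome scaffold gene, NEURL1B and DUSP1, which encodes a MAP kinase phosphatase. No hg19 gene positions were used here, so the windows and fragments below are given by position and distance and are not assigned to genes.

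The libraries held 708503 reads in replicate 1 and 1919737 in replicate 2. The deeper library did not hold more reads near the viewpoint: 68303 and 65464 reads lay between 10 kb and 2 Mb of it. Chromosome 5 outside a 10-kb zone around the viewpoint took 21.0% of the reads of replicate 1 (95% Wilson interval 20.9% to 21.1%) and 10.7% of those of replicate 2 (10.7% to 10.8%). Other chromosomes took 77.8% and 88.4%. The intervals cover counting error only, since reads amplified by PCR without molecular identifiers are not independent molecules. To set the libraries side by side, levels are given per 1000 of a library's reads between 10 kb and 9.8 Mb of the viewpoint on both sides, and errors are SD over 2 libraries.

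Near the viewpoint the strongest contacts lay on both sides, and the highest lay below. The fragment chr5:170835262-170840025, 14.8 kb below, held 5326 reads in replicate 1 and 5190 in replicate 2, or 62.9 ± 0.06 per 1000. Between it and the probable bait lay only chr5:170840030-170840323, with 206 and 262 reads, and chr5:170840328-170840931, with 87 and 0. The part of this nearness in its reads was not tested. Next below came chr5:170820839-170833077 at 25.5 kb, with 1762 and 2887 reads, and chr5:170796502-170804577 at 51.9 kb, with 811 and 1696. The fragment chr5:170784301-170796497 at 62.1 kb held 1038 and 1306 reads. Replicate 2 held more reads than replicate 1 in 3 of these 4.

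Above, the strongest fragment outside the 10-kb zone was chr5:170862833-170866306 at 12.1 kb, with 2445 and 1381 reads. The fragments chr5:170892723-170898246 at 43.0 kb, with 890 and 1022 reads, and chr5:170898251-170899386 at 46.4 kb, with 854 and 983, adjoin each other. The list of the 10 strongest reached farther above than below. Above it included chr5:170983340-170987680 at 133 kb, with 943 and 517 reads, chr5:171055025-171064475 at 207 kb, with 670 and 1020, and chr5:171240880-171249786 at 393 kb, with 808 and 534. Below, the most distant of the 10 was chr5:170748982-170749699 at 103 kb, with 328 and 257 reads. Single fragments varied between the libraries: chr5:170774453-170784296, 73.1 kb below, held 88 reads in one and 589 in the other.

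**Figure D1:**
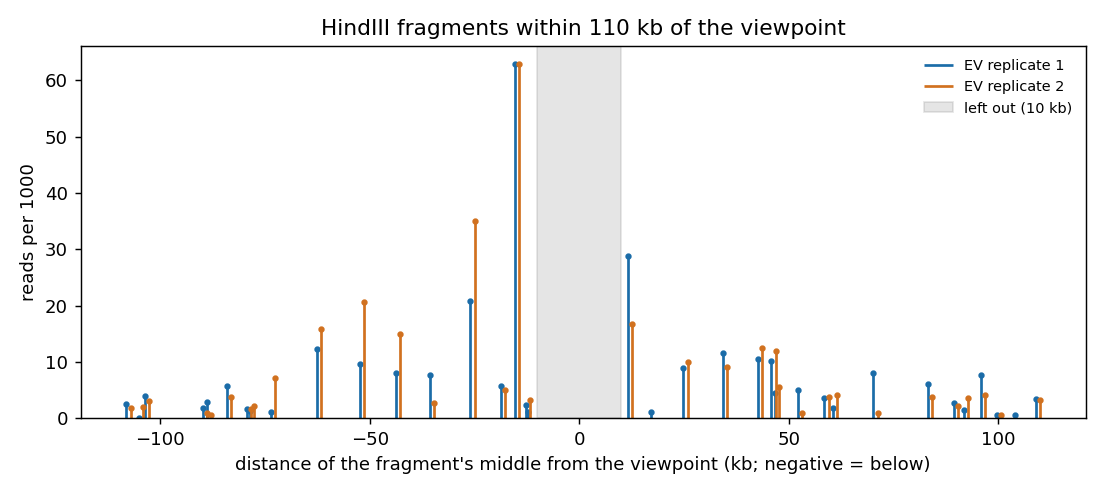
Reads per 1000 (y) of each HindIII fragment within 110 kb of the viewpoint against the distance of its middle in kb (x), with a stem for each library and the 10 kb left out shaded. The fragment 14.8 kb below stands highest at 62.9 per 1000 in the mean, and single fragments differ in height between the 2 libraries on both sides.

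The fall of contact with distance had a different shape on each side. Levels are reads per 1000 per 50 kb. From 50 to 100 kb, the below side stood at 44.5 ± 11.4 and the above side at 29.9 ± 9.17, and replicate 1 held 36.4 below and 36.3 above, against 52.6 and 23.4 in replicate 2. From 100 to 200 kb the order was turned, at 33.2 ± 2.18 above and 12.4 ± 0.05 below. From 200 to 400 kb the levels were 20.8 ± 0.50 above and 4.29 ± 0.76 below, and from 400 to 800 kb they were 19.2 ± 0.46 and 3.91 ± 0.48. In these 3 bands both libraries were higher above than either was below. The sides approached each other from 800 to 1600 kb, at 5.14 ± 0.38 above and 3.25 ± 0.39 below, and from 1600 to 3200 kb they stood at 1.38 ± 0.07 and 1.33 ± 0.16. Within a library, above minus below was -0.00479 in replicate 1 and 0.12 in replicate 2 there. From 3200 to 6400 kb the levels were 0.58 ± 0.07 and 0.53 ± 0.07, and above minus below was 0.0485 in replicate 1 and 0.0483 in replicate 2, a small excess above of the same size in both.

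The below side lost most of its contact first: its level dropped 3.59-fold from the band ending at 100 kb to the next and 2.93-fold from there to the band starting at 200 kb. In the mean it then stayed nearly level, with a fold fall of 1.12 ± 0.33 at 400 kb and 1.22 ± 0.30 at 800 kb. The libraries differed in direction at 400 kb, with 1.35 in replicate 1 and 0.88, a rise, in replicate 2. At 800 kb they gave 1.02 and 1.43. On the above side the fall was 1.60-fold at 200 kb and 1.08-fold at 400 kb, and the steep steps came at 800 kb, with 3.74-fold, and at 1600 kb, with 3.71-fold. A straight line of log2 level on log2 distance over these 7 bands had a slope of -1.01 ± 0.05 above and -0.93 ± 0.03 below. The difference of -0.08 ± 0.08 was no larger than the spread between libraries (exact sign-flip permutation test, two-sided p = 0.5, the smallest that 2 libraries allow). The slopes depended on how they were fitted: over single 50-kb windows in place of bands the difference was -0.49 ± 0.07, and with distances counted from the middle of the probable bait it was -0.19 ± 0.03, steeper above in both cases. Counting listed fragments in place of reads gave 0.0131 ± 0.05.

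**Figure D2:**
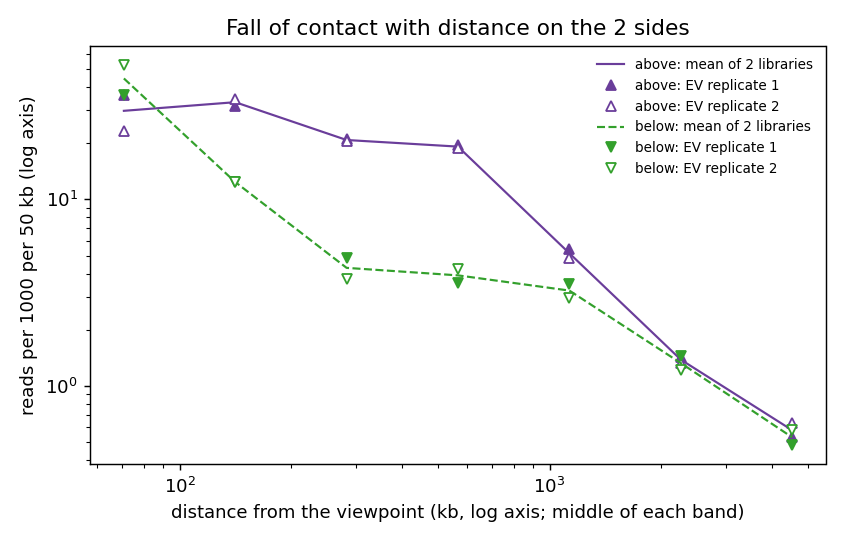
Reads per 1000 per 50 kb (y, log axis) against distance from the viewpoint in kb (x, log axis) in 7 bands that double in distance, with points for each library and lines for the mean. Above, the level stays near 20 from 200 to 800 kb and then drops; below, it drops before 400 kb and stays near 4 until 1600 kb.

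Of the reads between 10 kb and 2 Mb on the above side, 50% lay within 404.53 kb in both libraries, a distance set by the same fragment in each. On the below side, 50% lay within 89.4 kb in replicate 1 and 62.1 kb in replicate 2. Within 100 kb of the viewpoint lay 21.5% and 18.3% of the above reads and 50.6% and 57.4% of the below reads.

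Over 6 wider bands, the telomeric side held more reads in both libraries from 250 kb to 2 Mb. The nearest band joins the distances under 100 kb with those past 100 kb, where the below side stood lower. From 10 to 50 kb the below side held 9191 and 10192 reads against 6405 and 5420 above. Of the reads below, the fragment at 14.8 kb held 5326 and 5190. From 50 to 100 kb the below side held 3086 and 4335 against 3078 and 1926, nearly even in replicate 1. From 10 to 250 kb the above side held 17247 reads in replicate 1 and 16269 in replicate 2, and the below side 15170 and 16765. The log2 ratio of above over below was 0.07 ± 0.16, with the libraries on either side of 0 (exact sign-flip p = 1). Beside the viewpoint fragment, the 10-kb zone took out listed fragments only above, because the nearest interval below listed none. They held 1370 and 1023 reads at 3.19 kb and 1961 and 2058 at 8.1 kb. The ratio with these reads included was not computed. From 250 to 500 kb the above side held 9165 and 7720 reads and the below side 1441 and 1435. These are ratios of 6.36 and 5.38 and a log2 ratio of 2.55 ± 0.17. From 500 kb to 1 Mb the reads were 12144 and 11336 above and 3295 and 3407 below, ratios of 3.69 and 3.33 and a log2 ratio of 1.81 ± 0.10. From 1 to 2 Mb the ratios were 1.26 and 1.30 and the log2 ratio 0.36 ± 0.03.

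In the wide bands farther out, which cover other distances than the doubling bands, the below side held more. From 2 to 5 Mb the above side held 3982 and 3915 reads and the below side 4498 and 4276, a log2 ratio of -0.15 ± 0.03. From 5 Mb to 9838 kb, where the last listed fragment above lies, the reads were 3281 and 3908 above and 4654 and 5025 below, a log2 ratio of -0.43 ± 0.10. Past 9.8 Mb, chromosome 5 held 64328 reads in replicate 1 and 123236 in replicate 2. These were 43.2% and 59.9% of its reads outside the 10-kb zone. Whether the far bands stand over the level of these reads was not tested. In all bands but the nearest, both libraries had the same sign and the mean exceeded the SD. The exact sign-flip permutation test gave p = 0.5 for each of these 5 bands, the smallest value 2 libraries allow, so it cannot pass 0.05.

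**Figure D3:**
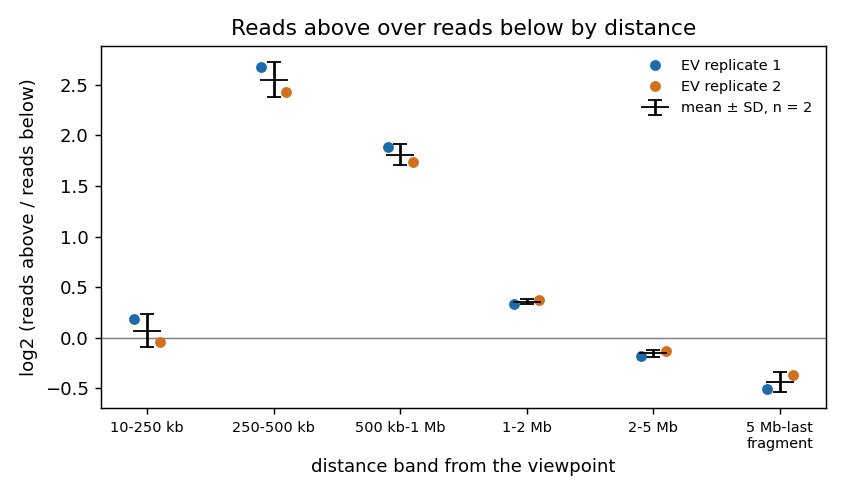
The log2 ratio of reads above over reads below (y) in 6 distance bands (x), with a point for each library and the mean ± SD over 2 libraries as a bar. The ratio is near 0 from 10 to 250 kb, reaches 2.55 from 250 to 500 kb and is below 0 beyond 2 Mb.

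How the excess was made up differed between the libraries. From 250 to 500 kb, replicate 1 listed 52 fragments above and 48 below, with medians of 122.5 and 20 reads. Replicate 2 listed 44 and 18, with medians of 133 and 48.5. In replicate 1 the log2 ratio of fragment numbers was 0.12 and that of mean reads per fragment 2.55, while in replicate 2 they were 1.29 and 1.14. From 500 kb to 1 Mb fragment numbers gave log2 ratios of 0.38 and 0.53, the smaller part of the read ratio of that band in both libraries. Counted as fragments with at least 1 read, the log2 ratio from 250 to 500 kb was 0.70 ± 0.83 in place of 2.55 ± 0.17. It was 1.29 ± 0.58 after every fragment was held to the 90th percentile of those listed. The above fragments were also the more often shared: 84.6% of those listed from 250 to 500 kb were in both libraries, against 29.4% below. Median fragment lengths in replicate 1 were 3063.5 bases above and 3582.5 below. From 2 to 5 Mb the log2 ratio of fragment numbers was -0.02 in replicate 1 and 0.11 in replicate 2, so its mean of 0.05 had the other sign from that of the reads but lay within the spread between libraries.

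The near-even ratio from 10 to 250 kb includes the strongest fragment of each side. Without both, a setting chosen after seeing the data, the log2 ratio was 0.48 ± 0.16. Leaving out the one below alone, also chosen after seeing the data, raises the ratio by construction, and gave 0.65. With 50 kb around the viewpoint left out it was 0.79. With distances counted from the middle of the probable bait it was 0.84, while the 250 to 500 kb band kept a value within its SD.

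Among mirrored bins, which pair 50 kb above with the 50 kb at the same distance below, the above side held more reads in both libraries in 14 of 15 bins from 250 kb to 1 Mb and less in both in 0. The remaining bin, at 950 kb, held 322 and 499 reads above and 497 and 197 below. Over all 196 bins to 9.8 Mb, 54 (27.6%) held more above in both libraries and 55 (28.1%) more below in both. From 5 Mb outward 16 of 96 bins were higher above and 30 higher below in both libraries. There, 36 windows above and 28 below had 0 reads in at least 1 library.

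The widest gap among the bins with the lowest p was from 500 to 550 kb, with 2368 and 2181 reads above and 93 and 161 below. Its log2 ratio was 4.21 (SE 0.43, edgeR quasi-likelihood test, adjusted p = 0.0511). The bin from 400 kb held 1959 and 2628 reads above and 268 and 287 below (log2 3.03, SE 0.33), and that from 300 kb held 1501 and 728 above and 169 and 62 below (log2 3.35, SE 0.41). The bin from 450 kb held 2431 and 1539 against 325 and 109 (log2 3.36, SE 0.42), and that from 550 kb 1715 and 1786 against 153 and 263 (log2 3.12, SE 0.40). In each of these 5 bins the lower library above exceeded the higher library below. The bins were chosen by the lowest p on the same reads, so this separation adds no support. All 5 had the same edgeR adjusted p of 0.0511, just outside the threshold of 0.05.

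Of 184 bins tested, edgeR called 0 higher above (0%) and 0 higher below (0%), with 17 and 3 at an unadjusted p under 0.05, while DESeq2 called 23 and 15. With the 40 bins within 2 Mb tested alone, edgeR called 14 higher above, and without the replicate block it called 9 over the whole range, so the count depended on the set tested and the model.

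The profile above the viewpoint had a raised stretch rather than an even fall. From 250 to 400 kb above, chr5:171102459-171252458, the level was 16.6 ± 3.13 reads per 1000 per 50 kb. From 400 to 650 kb, chr5:171252459-171502458, it was 24.3 ± 0.74, on 10514 and 9800 reads. From 650 to 800 kb, chr5:171502459-171652458, it was 10.7 ± 0.02. These limits were set from the profile, so the ratios are a description: the raised stretch stood 1.32 and 1.65 times over the one before it and 2.33 and 2.23 times over the one after it. At the same distances below, 400 to 650 kb held 1131 and 1123 reads, or 2.70 ± 0.04 per 1000 per 50 kb. The above side was 9.30 and 8.73 times as high there, and this stretch alone held 23.9% and 24.4% of the above reads within 2 Mb, against 4.66% and 4.44% below.

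**Figure D4:**
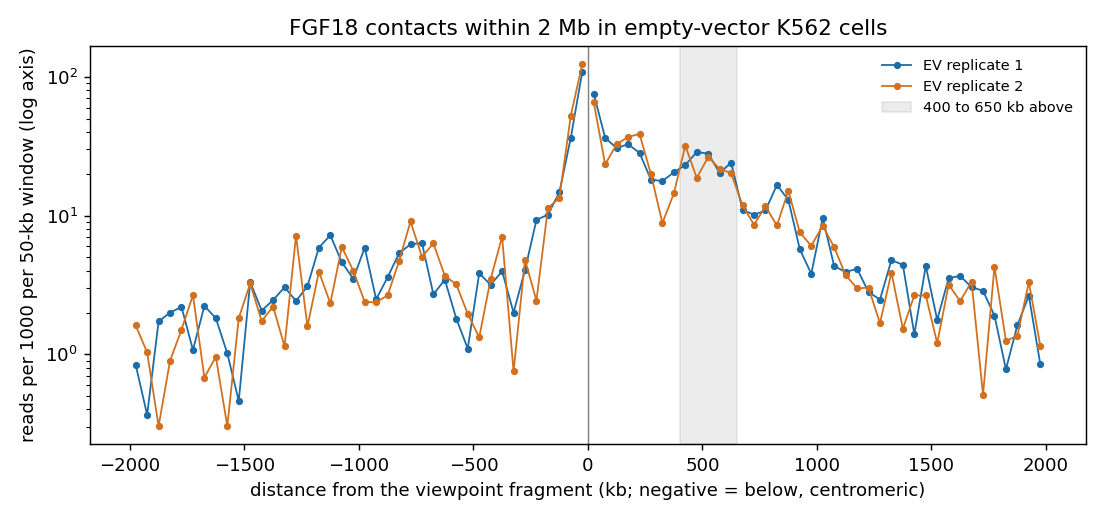
Reads per 1000 in each 50-kb window (y, log axis) against distance from the viewpoint in kb (x, negative below), with a line for each library and the stretch from 400 to 650 kb above shaded. The above side has a shoulder at 24.3 per 1000 per 50 kb in the shaded stretch, where the same distances below stand at 2.70.

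The libraries ranked the windows above more alike than those below. Over the 40 windows within 2 Mb, which share depth and fragment layout within a library, Spearman's rho between libraries was 0.92 above and 0.71 below. Both values include the fall with distance, which had a different shape on each side. Likeness of the libraries apart from that fall was not tested. Of the fragments listed in either library, 239 of 382 (62.6%) were in both above and 164 of 369 (44.4%) below, with rho over shared fragments of 0.58 and 0.43. Single fragments were thus less alike between libraries than windows.

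Each window was then set against the decay of its own side, a curve that may only fall with distance. Within 2 Mb, 1 window on each side passed the test. The window from 500 to 550 kb above, chr5:171352459-171402458, held 2368 and 2181 reads, at a log2 of observed over expected of 0.41 (SE 0.05, edgeR adjusted p = 0.0018). It belongs to the raised stretch. Its reads were spread over 13 fragments, of which 11 were in both libraries, and the one with most reads, chr5:171388970-171404734, held 254 and 647. The expected level of this window, 1887 and 1563 reads, was also that of the lower windows from 300 to 400 kb above. From 400 kb, also in the raised stretch, a window of 1959 and 2628 reads had a log2 of 0.44. It did not pass (edgeR adjusted p = 0.053). The window from 750 to 800 kb below, chr5:170052459-170102458, held 526 and 747 reads, at a log2 of 1.12 (SE 0.18, edgeR adjusted p = 0.0089). It had reads in 9 fragments, 7 of them in both libraries, led by chr5:170073666-170082926 with 216 and 257. When the 80 windows within 2 Mb were tested alone, none was called.

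Beyond 2 Mb, the median log2 over all windows tested was 1.46 above and 1.16 below. There, 15 of 83 windows tested above and 11 of 99 below passed, at log2 values of 1.46 to 3.37 and 2.29 to 3.83. The expected level in replicate 2 was 10.9 reads for the window from 4700 kb above and 18.2 for that from 7950 kb below. Whether such levels lie under the background of chromosome 5 past 9.8 Mb was not tested. The clearest of the windows that passed were an adjoining pair below, from 7900 to 8000 kb, chr5:162852459-162952458, with 499 and 739 reads in all. At the same distance above lay 20 and 48 reads. In the pair, chr5:162852459-162902458 held 318 and 320 reads against 31.2 and 18.2 expected (log2 3.78, SE 0.23, edgeR adjusted p = 5.0e-05), with 5 of 10 fragments in both libraries. Its neighbour chr5:162902459-162952458 held 181 and 419 reads (log2 3.83). These were also the 2 windows that DESeq2 called. The window chr5:167902459-167952458, from 2900 kb below, held 331 and 418 reads (log2 2.48, 6 of 10 fragments in both libraries), and chr5:163752459-163802458, from 7050 kb below, held 215 and 170 (log2 3.01, 5 of 10).

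Most other far windows rested on fewer reads on both sides. Summed over both libraries, the called windows beyond 2 Mb held 118 to 493 reads above, with a median of 213, and 169 to 749 below, with a median of 256. The highest above, from 4700 kb, held 80 and 197 reads (log2 3.37), with 1 of 9 fragments in both libraries, and that from 8050 kb held 41 and 196 (log2 3.35), with 1 of 5. The window from 5600 kb held 180 and 129 reads (log2 3.18), with 1 of 7. The window from 5800 kb held 21 and 178 reads, and without replicate 2 its log2 was -0.40. Below, the window from 8850 kb held 12 and 162 reads, and its log2 without replicate 2 was -0.43. Of the 26 called windows beyond 2 Mb, 8 had no fragment with reads in both libraries, 3 of 15 above and 5 of 11 below, and 7 had 1.

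In all, edgeR called 28 of 262 windows over the decay (10.7%) and 0 under it (0%), with 83 and 3 at an unadjusted p under 0.05. DESeq2 called 2 over and 0 under. That all calls lay over the decay is no result. Windows under 10 reads in either library entered the decay but were not tested, which takes out low windows where the expected level itself was low. Without this filter edgeR called 41 over and 3 under. The expected level was low far out: the median log2 of observed over expected was -0.00 over the 80 windows within 2 Mb and 1.34 over the 182 windows tested beyond it. The fit on the log scale includes windows with 0 reads. With the decay fitted on reads, chosen after seeing the data, that far median was 0.20 and 1 window was called, chr5:162852459-162902458 (log2 2.59, edgeR adjusted p = 0.040).

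**Figure D5:**
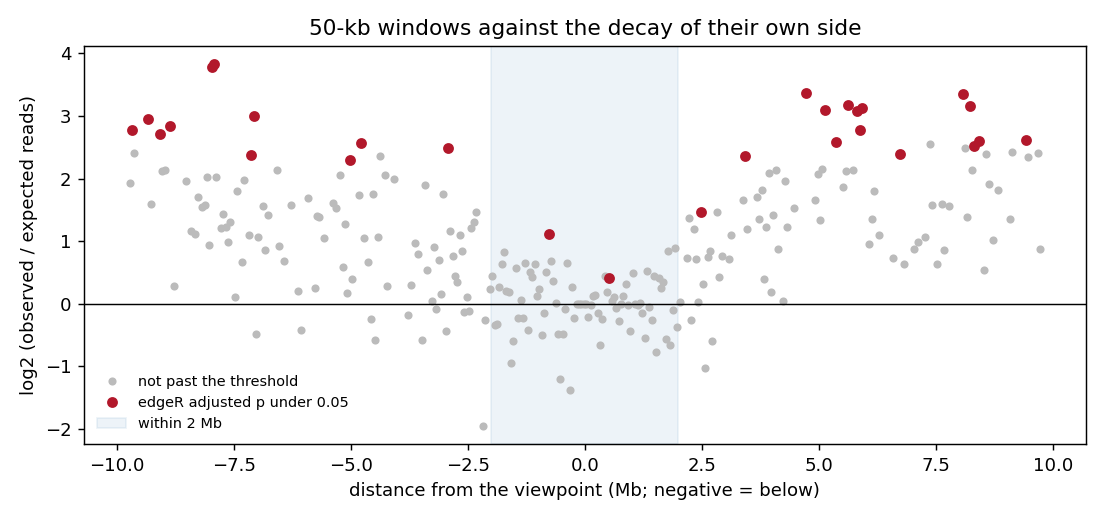
The log2 of observed over expected reads (y) of 262 windows of 50 kb against distance from the viewpoint in Mb (x, negative below), with windows past the edgeR threshold in red and the range within 2 Mb shaded. Windows within 2 Mb scatter around 0, and those beyond lie mostly over 0, with the pair near 8 Mb below highest on that side.

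The authors' deposited table of each library gives a q-value per fragment. At q of at most 0.05 it called 63 of 45771 listed fragments in replicate 1 and 106 of 46309 in replicate 2. In the authors' deposited tables, 7 fragments were called in both, all on chromosome 5 and the viewpoint fragment among them. The other 6 were 2 above, at 8.1 and 12.1 kb, and 4 below, at 14.8, 25.5, 51.9 and 62.1 kb. By the authors' deposited table of replicate 1 alone, 9 were called above and 4 below, so the libraries differed above and not below. The most distant, chr5:171240880-171249786 at 393 kb above, had a q of 0.000278 in the authors' deposited table of replicate 1 and of 1 in that of replicate 2, on 808 and 534 reads. No fragment of the raised stretch from 400 to 650 kb was called in either authors' deposited table. A called fragment of chromosome 5 held at least 753 reads in replicate 1 and 1306 in replicate 2, and the strongest fragment of the called window at 500 kb held fewer.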

How the data were processed

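The 2 empty-vector 4C-seq libraries were grouped by title. Chromatin was digested with HindIII and DpnII and libraries ran on a MiSeq, per the labels' protocols. Bowtie2 2.2.5 and hg19 are named in the submitters' processing notes. The sources used here do not give the interaction caller or its filters. The files, per the file headers, list an unnormalized read count for each HindIII fragment. A p-value and a q-value for each fragment, computed by the authors library by library, stand beside it. Unlisted fragments counted as 0.

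The members and lists were chosen with earlier results of these data known. Distances run from the middle of the viewpoint fragment, and 10 kb around it were left out. Reads were summed in 50-kb windows to 9.8 Mb, by fragment middle. Slopes came from 7 doubling bands from 50 kb to 6.4 Mb. Mirrored bins went through the quasi-likelihood test of edgeR 4.0.16 under R 4.3.3 (both sides of each library as 4 columns, library as block, at least 10 reads in at least 2 columns, no scaling beyond library size). For the decay, expected reads came from an isotonic fit of log2(reads + 1) per library and side. The edgeR quasi-likelihood F statistic was then computed against a mean fixed at the expected reads, step by step, because the packaged test needs a design of more than 1 column. The decay was fitted on all windows of a side, also those with too few reads to be tested, so the expected level is not independent of the tested windows. Adjusted p-values are Benjamini-Hochberg values over the windows or bins tested, after the filter on low reads, at a threshold of 0.05. DESeq2 1.42.0 was an alternative, beside fragment numbers, capped reads, other windows, filters, centres and decays. The fits were also run on simulated counts drawn around the fitted levels with a fixed dispersion. The decay was not refitted there, so that run cannot tell how the decay fit affects the calls.

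Windows to name were drawn, per side, from the 10 called windows with the largest log2 ratio, and not all of these are given. The called window of each side within 2 Mb was added, and the window from 400 kb above for comparison. Also named were the 5 mirrored bins with the lowest p, since fewer than 5 passed. Fragments ranked by reads were drawn from the 10 with most reads on each side within 2 Mb. Python 3.11.15, numpy 2.4.6, pandas 2.3.3, scipy 1.17.1 and matplotlib 3.10.9 were used. Levels rest on the chromosome 5 reads used for scaling, not on the library totals of 708503 and 1919737. The scaling reads numbered 68303 in replicate 1 and 65464 in replicate 2 between 10 kb and 2 Mb. From 2 Mb to the outer limit they numbered 16401 and 16965. With 2 libraries, precision is limited by the number of libraries more than by counting error. The knockout libraries and hg19 gene positions were not used here.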

Additional observations from a re-analysis of the deposited data

How the results depend on the processing

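With 2 libraries no ratio or slope can pass an exact test, and the sparse far windows limit what can be called there. The excess from 250 kb to 1 Mb kept its direction under the alternatives run for it. By number of fragments with at least 1 read, the log2 ratios were 0.70 (250 to 500 kb), 0.46 (500 kb to 1 Mb), 0.0561 (1 to 2 Mb), 0.0474 (2 to 5 Mb, a turned sign) and -0.33 (beyond 5 Mb). With capped reads they were 0.31 (10 to 250 kb), 1.29, 1.00, 0.31 and -0.11. From the probable bait, 10 to 250 kb gave 0.84 and 1 to 2 Mb gave 0.40. The nearest band stood at 0.79 with 50 kb left out and, chosen after seeing the data, at 0.65 without the strongest fragment below and 0.48 without that of each side. Why these values moved was not tested.

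Slopes above and below were -0.34 and -0.35 by fragments (difference 0.0131, a turned sign), -0.59 and -0.57 capped, and -1.67 and -1.18 over single 50-kb windows (difference -0.49). From the bait the slope below was -0.87 and the difference -0.19. Leaving out 1 library in turn gave -0.04 to 0.19, 2.43 to 2.67, 1.73 to 1.88, 0.34 to 0.38, -0.18 to -0.13 and -0.50 to -0.36 for the bands from near to far. It gave slopes of -1.04 to -0.97 above and -0.95 to -0.91 below, with a difference of -0.14 to -0.02.

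Both sides of a mirrored bin come from the same library, so the library was a replicate block. Against 0 bins higher above with it, there were 9 with no replicate block, 23 by DESeq2, 10 from the bait, 9 with 100-kb windows, 6 without a filter and 14 within 2 Mb. Against 0 higher below, there were 15 by DESeq2 and 2 with 100-kb windows. Against 28 windows over the decay, there were 2 by DESeq2, 3 by fragments (at least 3 in each library), 77 capped, 3 from the bait, 121 with 25-kb windows, 0 with 100-kb windows, 0 within 2 Mb, 99 with a straight line, 85 with 1 decay for both sides and 1 with the decay fitted on reads (chosen after seeing the data). Against 0 under it, there were 3 capped, 1 with 25-kb windows, 3 without a filter, 4 with a straight line and 9 with 1 decay. These 2 counts cannot be tested on 1 library. The authors' calls above, 2 in both libraries, were 1 at a q of 0.01 and 9 in either library (2 to 9 leaving out 1 library). The windows from 5800 kb above and 8850 kb below gave -0.40 to 4.04 and -0.43 to 3.79 leaving out 1 library.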

Other observations

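Outside chromosome 5, the authors' deposited tables called 49 fragments in replicate 1 and 99 in replicate 2 at a q of at most 0.05, and 0 of them in both. Of the 49, 5 were listed with any read in replicate 2, and of the 99, 10 were listed in replicate 1. These fragments held 77 to 172 reads in replicate 1 and 167 to 284 in replicate 2 in the authors' deposited tables, while called fragments of chromosome 5 held at least 753 and 1306. Over all chromosomes 4426 fragments were listed in both libraries, 9.67% of the 45771 of replicate 1 and 9.56% of the 46309 of replicate 2. On chromosome 5 the shares were 16.7% and 24.7%.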
